A study of Mus musculus with 2 samples.

Results

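The circadian clock genes followed here were 10 genes chosen by symbol, *Clock*, *Npas2*, *Per1*, *Per2*, *Per3*, *Cry1*, *Cry2*, *Nr1d1*, *Nr1d2* and *Dbp*. A gene was measured where a probe carried its symbol alone, and 9 of the 10 genes had such a probe, out of 22180 genes measured in all. *Per2* was left without a value of its own, because its 1 probe is also annotated to 9830107B12Rik, a gene on another chromosome. The *Mapk10*-/- array held RNA from 3 homozygous *Mapk10*-/- mice, which lack the kinase JNK3 in the whole body. The WT array held RNA from 3 wild-type mice, age-matched and bred from the same kind of heterozygous parents. All were described as males of 8 to 12 weeks on the C57Bl6/J background, with right hindlimb ischemia under ketamine and xylazine anesthesia, and their gastrocnemius was taken on day 3 (the labels also name the thigh adductor as tissue). Each pool gave 1 array, so the spread between mice is not measured and no test or p-value exists. No source used here gives the hour of tissue collection, the lighting or the feeding state.

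The clock of a mammalian cell is a loop of transcription. CLOCK or its relative NPAS2 pairs with BMAL1 (*Arntl*) and switches on genes with E-boxes, among them the *Per* and *Cry* genes, whose proteins return to the nucleus and silence the pair. A side loop runs through the nuclear receptors NR1D1 and NR1D2 (REV-ERB alpha and beta), which are induced by the same pair and repress *Arntl*, *Npas2* and *Clock*, while DBP, also under E-box control, drives genes with D-boxes. In mice kept in light and dark, *Npas2*, *Clock* and *Arntl* transcripts of peripheral tissues peak near the end of the night, and *Nr1d1*, *Dbp* and the *Per* genes in the day and evening. Skeletal muscle carries this clock and uses it to time metabolic and myogenic genes.

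The WT array went against the description of its mice as male. *Xist*, the RNA of the inactive X chromosome, read 23.0 on the *Mapk10*-/- array and 554.0 on the WT array. The genes of the Y chromosome were brighter on the *Mapk10*-/- array, by 1.31 for *Uty*, 1.11 for *Eif2s3y* and 0.80 for *Kdm5d* on the log2 scale. On the WT array they still read 55.4 for *Uty*, 85.7 for *Eif2s3y* and 41.2 for *Kdm5d*, against 137.1, 185.5 and 71.7 on the *Mapk10*-/- array. Whether the WT pool held mice of 1 sex or of both was not tested. The deleted gene *Mapk10* was dim, with 17.7 on the *Mapk10*-/- array and 25.2 on the WT array (log2 difference -0.51), and no source used here places its probe relative to the deletion. Sex of the pooled mice, their genotype and the hour of collection cannot be told apart in the clock gene values.

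Promoter sequences of RefSeq (mouse build GRCm38.p6), 250 bases before to 50 bases after each start, were found for 9 of the 10 genes in 12 sequences; *Per2* had none. Stretches before the start are printed for the 5 genes in which a clock motif was found, in the order of their array differences, to show which of the known binding letters each carries. Capitals mark the motif found, which is the E-box CACGTG, a second form of the E-box spelled CACGTT, or the D-box TTATGTAA. Where the second form lies on the other strand, it reads as AACGTG in the sequence printed.
*Nr1d1*: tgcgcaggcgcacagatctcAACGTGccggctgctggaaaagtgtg
*Per1*: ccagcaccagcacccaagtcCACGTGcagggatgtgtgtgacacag
*Cry2*: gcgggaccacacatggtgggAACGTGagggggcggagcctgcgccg
*Per3*: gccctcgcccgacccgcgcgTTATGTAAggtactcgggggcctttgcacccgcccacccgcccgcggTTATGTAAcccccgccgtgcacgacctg
*Cry1*: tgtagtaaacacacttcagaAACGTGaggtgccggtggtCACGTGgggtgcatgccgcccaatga
The *Nr1d1* stretch lies at chr11:98775380-98775425 on the minus strand and *Per1* at chr11:69098763-69098808 on the plus strand. *Cry2* lies at chr2:92434210-92434255, *Per3* at chr4:151044796-151044890 and *Cry1* at chr10:85185089-85185153, all 3 on the minus strand. Both strands were searched and none of these matches overlapped another. CACGTG was found in *Per1* and *Cry1*, against 7.15% of all 32851 promoter sequences, and CACGTT in *Nr1d1*, *Cry1* and *Cry2*, against 4.68%. TTATGTAA was found in *Per3* alone of the 9 genes, at 2 places, and 0.938% of all promoters held that motif. The other D-box TTACGTAA (0.119% of all promoters), the ROR element (AANT followed by AGGTCA, 0.219%) and the cAMP response element TGACGTCA (1.79%) were found in no clock gene within this window, and *Clock*, *Npas2*, *Nr1d2* and *Dbp* held none of the 6 motifs there.

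Values are the authors' processed array signals on a linear scale, and a difference is log2 of the *Mapk10*-/- signal minus log2 of the WT signal. The error given is the technical SD, the spread between the log2 differences of 2 probes of the same gene, which was 0.26 to 0.31 in 4 classes of signal. It leaves out the spread between mice. Both probes were read on the same 2 arrays, so it also leaves out any error that the probes of an array share. In place of a test, a gene was counted as higher or lower when it was at least 1.5-fold apart. Of the 9 clock genes, 4 were higher on the *Mapk10*-/- array by this rule and 0 were lower. Of all genes, 4.10% were higher and 3.69% lower. The clock genes and the lists below were chosen with earlier results of these data known. Their counts beside the share of all genes are therefore description only. Among the brighter 11090 genes, those with a mean signal of both arrays no lower than the median of all genes, 6.15% were higher and 2.42% lower. All 9 clock genes were among them, but *Npas2* only just, with 47.3 on the *Mapk10*-/- array and 66.3 on the WT array against that median of 55.8. At 2-fold, *Nr1d1* alone of the 9 was higher and 0 were lower, against 0.825% and 0.609% of all genes. The median difference of the clock genes was 0.40 against 0.00 for all genes, and 7 of 9 lay above 0, as did 47.8% of all genes.

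**Figure D1:**
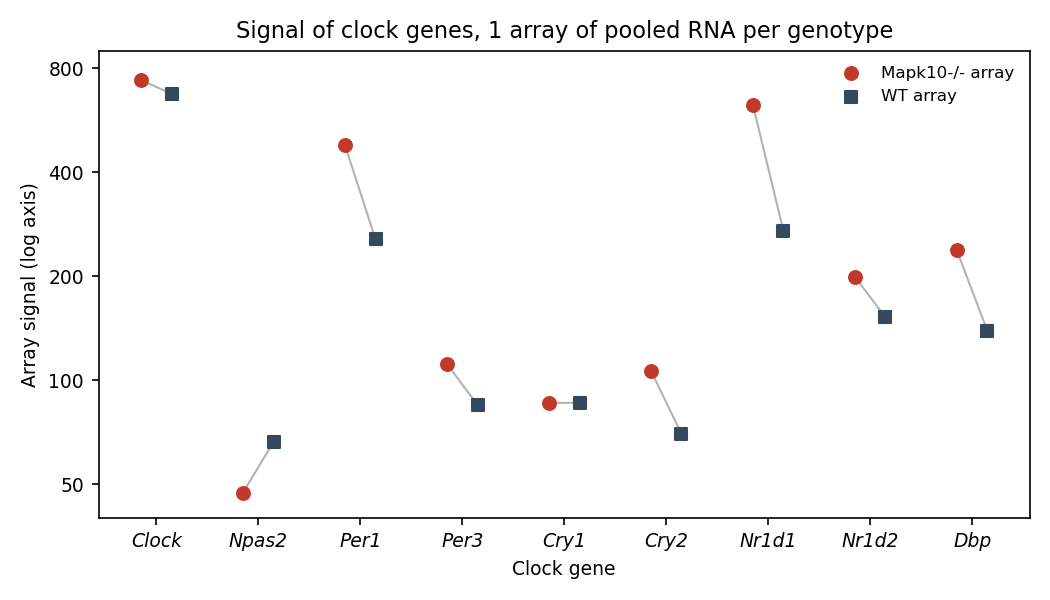
Array signal (log axis) of the 9 clock genes on the *Mapk10*-/- array (circles) and on the WT array (squares), with a line joining the values of a gene. The *Mapk10*-/- point stands furthest above its WT point for *Nr1d1*, *Per1* and *Dbp* and below it for *Npas2*, and signals are to be compared within a gene only.

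*Nr1d1*, the repressor that links the side loop to *Arntl*, differed most. Its signal was 628.8 on the *Mapk10*-/- array and 270.5 on the WT array, 2.32-fold higher with a log2 difference of 1.22 (technical SD 0.30). This placed it 77th from the top among the 22180 genes. *Nr1d2*, its paralog with an overlapping role, had 199.5 on the *Mapk10*-/- array and 152.2 on the WT array, a difference of 0.39 (technical SD 0.28) that did not reach 1.5-fold. The 2 receptors thus lay on the same side of 0, with *Nr1d1* above *Nr1d2* by 0.83, or 2.04 technical SDs of that contrast. In RefSeq the span of *Nr1d1* overlaps that of *Thra*, a thyroid hormone receptor gene, and no source used here places the probe relative to the shared stretch. *Thra* itself had 96.7 on the *Mapk10*-/- array and 77.4 on the WT array, a difference of 0.32.

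Among the *Per* genes, whose proteins close the loop and of which *Per1* is also induced by cAMP and by glucocorticoids, *Per1* was 1.87-fold higher. It had a signal of 479.7 on the *Mapk10*-/- array and 256.0 on the WT array, a log2 difference of 0.91 (technical SD 0.30). *Per3*, the member least needed for rhythm in mice, had 111.6 on the *Mapk10*-/- array and 84.8 on the WT array, a difference of 0.40 (technical SD 0.26) below the 1.5-fold line. The probe shared by *Per2* and 9830107B12Rik read 87.6 on the *Mapk10*-/- array and 60.4 on the WT array, a difference of 0.54, which is not assigned to *Per2*. All 3 probes were brighter on the *Mapk10*-/- array.

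The cryptochromes, the partners of PER in repression, differed from each other. *Cry2* had 106.7 on the *Mapk10*-/- array and 70.0 on the WT array, 1.52-fold higher with a log2 difference of 0.61 (technical SD 0.26). It sat just past the 1.5-fold line (0.585 on the log2 scale) and was under it after loess normalization (0.584) and with a pseudocount of 16 (0.51). A second probe, shared by *Cry2* and the overlapping D930015M05Rik, read 42.9 on the *Mapk10*-/- array and 43.6 on the WT array, a difference of -0.02. *Cry1*, the stronger repressor of the pair in mice, had 86.0 on the *Mapk10*-/- array and 86.1 on the WT array, a difference of -0.0022 (technical SD 0.26). The contrast between *Cry2* and *Cry1* was 0.61, or 1.64 technical SDs.

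*Dbp*, a PAR bZIP factor and a direct output of the clock, had 237.8 on the *Mapk10*-/- array and 139.0 on the WT array. It was 1.71-fold higher, with a log2 difference of 0.77 (technical SD 0.28), and ranked 429th from the top. The activators lay lower. *Npas2* had 47.3 on the *Mapk10*-/- array and 66.3 on the WT array, 1.40-fold lower with a difference of -0.49 (technical SD 0.26), which was short of the 1.5-fold line. *Clock*, the usual partner of BMAL1, had 740.3 on the *Mapk10*-/- array and 675.4 on the WT array, a difference of 0.13 within 1 technical SD of 0. *Npas2* lay below *Clock* by 0.62, or 1.56 technical SDs of the contrast. *Dbp* overlaps *Sphk2* in RefSeq, *Per3* overlaps *Uts2*, and the spans of *Clock* and *Npas2* hold other gene models, with probe places again unknown, whereas *Per1*, *Cry1* and *Nr1d2* overlap no other gene. *Sphk2* differed by 0.14 and *Uts2* by -0.17.

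**Figure D2:**
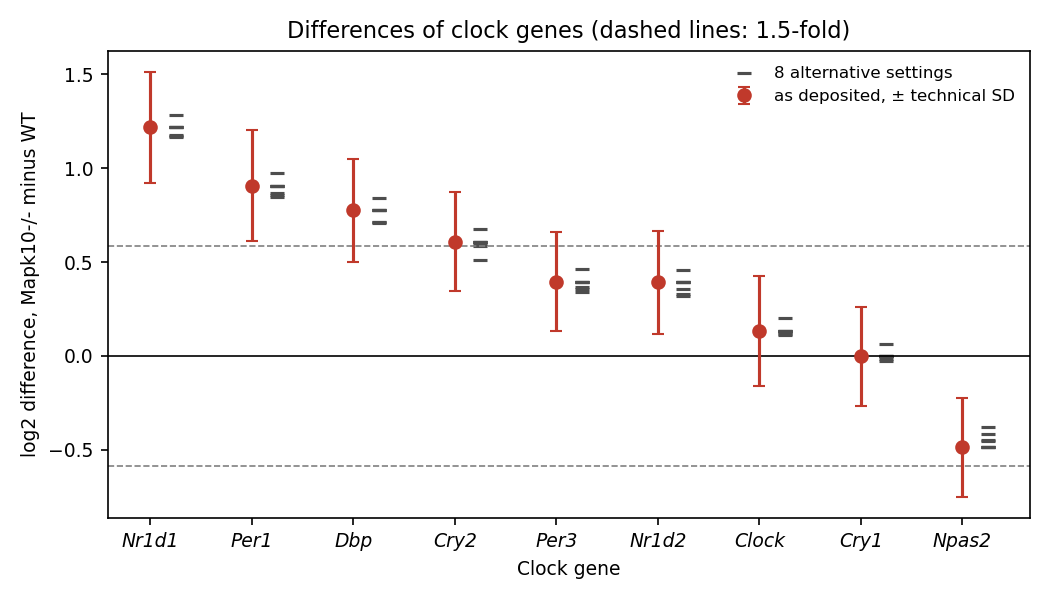
Log2 difference (*Mapk10*-/- minus WT) of the 9 clock genes from highest to lowest, with bars of 1 technical SD, the 1.5-fold lines (dashed) and the values under 8 alternative settings (dashes beside each point). *Nr1d1*, *Per1* and *Dbp* stay above the upper line under all 8 settings, *Cry2* lies close to it on either side, and *Npas2* lies below 0 under each of them. The mean of probes, a floor, probes with several symbols and brighter genes only leave these values unchanged.

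The genes were then set out by the phase in which they usually peak, with *Cry1* and *Cry2* placed in neither group. The day and evening genes (*Dbp*, *Per1*, *Per3*, *Nr1d1* and *Nr1d2*) had a median difference of 0.77, with 5 of 5 above 0 and 3 of 5 at least 1.5-fold higher. Among all genes, 47.8% lay above 0 and 4.10% were at least 1.5-fold higher. The end-of-night genes *Npas2* and *Clock* had a median of -0.18, so the contrast, end of night minus day and evening, was -0.95. Over the 8 alternative settings it ran from -0.95 to -0.83. Median centring cancels in such a contrast, and the mean of probes, a floor and brighter genes only left these genes unchanged, so this narrow range is partly by construction. The value of -0.83 came with the shared *Per2* probe counted. Genes of the same phases outside the 10 were set out likewise. *Arntl* and *Nfil3* had a median of 0.06, against 0.39 for *Tef*, *Hlf*, *Ciart*, *Usp2*, *Bhlhe41* and *Wee1*, a contrast of -0.33 that ran from -0.38 to -0.19 over the alternatives, the smallest in size with the mean of probes, where *Tef* was at 0.23. Of the end-of-night genes, *Npas2* alone lay below 0, while *Clock*, *Arntl* and *Nfil3* lay between 0.02 and 0.13. Whether the pools were collected at different hours was not tested.

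Of 23 other clock components listed, 20 had a value, of which 2 passed 1.5-fold upward and 0 downward (4.10% and 3.69% of all genes), with a median of 0.24. The highest was *Bhlhe41* (DEC2), an E-box repressor that dampens CLOCK and BMAL1 activity. It had 251.3 on the *Mapk10*-/- array and 89.1 on the WT array, 2.82-fold higher or 5.42 technical SDs, and was 31st from the top of all genes, above any of the 9 clock genes. Its paralog *Bhlhe40* (DEC1) was at 0.30, with 713.2 on the *Mapk10*-/- array and 578.7 on the WT array. The second was *Usp2*, a deubiquitinase with a strong daily rhythm in many mouse tissues, with 567.6 on the *Mapk10*-/- array and 333.0 on the WT array (difference 0.77). *Rora*, the activator that competes with the REV-ERB receptors for their DNA element, was just under the line at 0.58, with 243.4 on the *Mapk10*-/- array and 163.0 on the WT array.

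The obligate partner *Arntl* had 116.4 on the *Mapk10*-/- array and 108.6 on the WT array, a difference of 0.10 within 1 technical SD. *Arntl2*, its relative, was at -0.26 and was the 1 component below 0. The D-box repressor *Nfil3*, which opposes DBP, was at 0.02. The PAR bZIP factors related to *Dbp* were at 0.52 for *Tef*, or 0.23 averaged over both probes, and at 0.09 for *Hlf*. Of the genes that set the stability of PER and CRY, the kinase *Csnk1e* was at 0.49 and the ligase adaptors *Fbxl21* and *Btrc* at 0.32 and 0.30. *Fbxl21* was dim, with 21.4 on the *Mapk10*-/- array and 17.2 on the WT array. *Fbxw11* and *Gsk3b* of the same group were at 0.20 and 0.11. The complex partners *Timeless*, *Nono*, *Wdr5* and *Sirt1* lay between 0.04 and 0.22. The E-box CACGTG stood in the promoters of 4 of the 18 components with a sequence, *Bhlhe41*, *Tef*, *Ciart* and *Sirt1*, of which the last 3 differed by 0.52, 0.27 and 0.04. Of all promoter sequences, 7.15% held it, a share per sequence that is not the same measure, since the 18 components had 24 sequences.

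**Figure D3:**
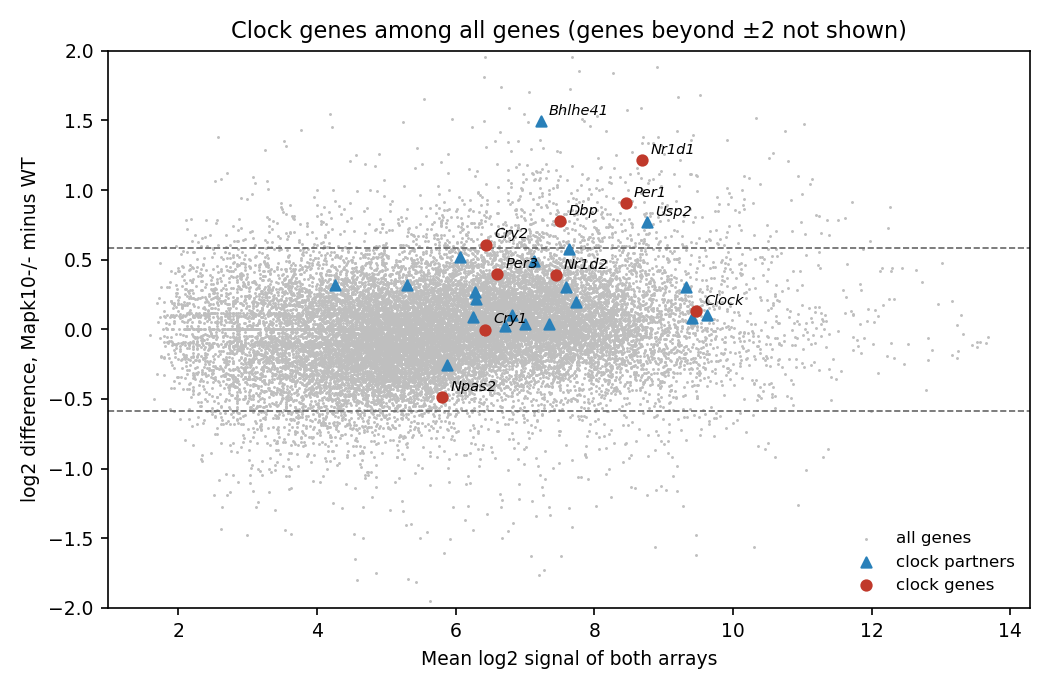
Log2 difference (*Mapk10*-/- minus WT) against the mean log2 signal of both arrays, for all genes (grey), the 20 other clock components (triangles) and the 9 clock genes (circles), with 1.5-fold lines (dashed). *Bhlhe41* (2.82-fold) and *Nr1d1* (2.32-fold) stand highest of the marked genes, and *Npas2* at -0.49 lowest.

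Genes that the clock is known to time in muscle or in many tissues had a median of 0.30, and of 11 with a value 4 were at least 1.5-fold higher and 0 lower, beside 4.10% and 3.69% of all genes. The higher ones were *Tcap*, a Z-disc protein (0.90), *Cdkn1a*, a cell cycle inhibitor (0.86), *Hk2*, the muscle hexokinase (0.81), and *Myod1*, the myogenic factor (0.59). The other 7 stayed within 1.5-fold, at 0.47 for *Tsc22d3*, 0.30 for *Pdk4*, 0.29 for *Lpin1*, 0.28 for *Nampt*, 0.25 for *Alas1*, 0.13 for *Wee1* and -0.12 for *Tspan4*.

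Signals that can shift *Per1* or the whole clock were read from further lists, again beside 4.10% of all genes higher and 3.69% lower. Of 11 glucocorticoid-induced genes 3 passed 1.5-fold upward and 0 downward (median 0.34), namely *Cdkn1a* (0.86), *Klf15* (0.74) and *Sgk1* (0.68). The other 8 ran from -0.23 for *Fkbp5* to 0.52 for *Zbtb16*, with 4 of them above 0 (*Zbtb16*, *Tsc22d3*, *Klf9* and *Errfi1*) and 4 below (*Fkbp5*, *Mt1*, *Mt2* and *Ddit4*). Of 7 immediate early and CREB-induced genes (median 0.22) 1 was higher, the salt-inducible kinase *Sik1* (0.70), and 0 were lower, and the other 6 ran from -0.08 for *Junb* to 0.42 for *Atf3*. Among 6 heat-induced chaperones (median 0.37) *Hspa1b* (1.10), *Hsph1* (0.69) and *Hspa1a* (0.68) were higher and 0 were lower, of which *Hspa1a* and *Hspa1b* are near-identical copies that probes may not separate, and the cold-induced *Cirbp* was at 0.09. Lists shared genes: *Cdkn1a* and *Tsc22d3* stand among both the clock outputs and the glucocorticoid-induced genes.

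The tissue itself also differed between the arrays. Skeletal muscle fibre markers were bright on both, with *Acta1* at 9715.4 on the *Mapk10*-/- array and 7002.1 on the WT array. Of 14 markers 9 passed 1.5-fold upward and 0 downward, against 4.10% and 3.69% of all genes. Their median was 0.75, and their summed signal was 50969 on the *Mapk10*-/- array and 35703 on the WT array. The differences of these markers ran from 0.20 for *Myh4* to 1.67 for *Myh2*, a range that takes in 6 of the 9 clock genes, the others being *Clock*, *Cry1* and *Npas2*, which lay lower. Of 12 neutrophil markers 0 were higher and 7 lower, with a median of -0.83 and summed signals of 676.3 on the *Mapk10*-/- array and 1355.4 on the WT array. The medians were -0.25 for 8 macrophage markers and -0.16 for 8 endothelial markers, 0.23 for 5 Schwann cell markers, -0.065 for 6 fibroblast markers and -0.39 for 5 adipocyte markers. Of these, *Mrc1* and *Itgam* (macrophage), *Pdgfra* (fibroblast) and *Plin1* (adipocyte) were at least 1.5-fold lower, by differences of -0.92, -0.77, -0.76 and -0.62. No probe was listed at 0, the lowest being 2.27 on the *Mapk10*-/- array and 2.15 on the WT array, so detection cannot be read from this. Neutrophil markers ranged from 10.4 to 210.4 on the *Mapk10*-/- array and from 16.1 to 420.9 on the WT array. The median mean signal of all genes was 55.8. Of the dim ones, *Ly6g* was among those counted as lower, while *Camp* was at 0.32 and *Ngp* at 0. In pooled whole tissue, fewer cells of a type and less RNA per cell cannot be told apart. The part of muscle and neutrophil content in the differences of the clock genes was not tested, nor in those of the clock outputs, among them the muscle genes *Tcap*, *Hk2* and *Myod1*.

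**Figure D4:**
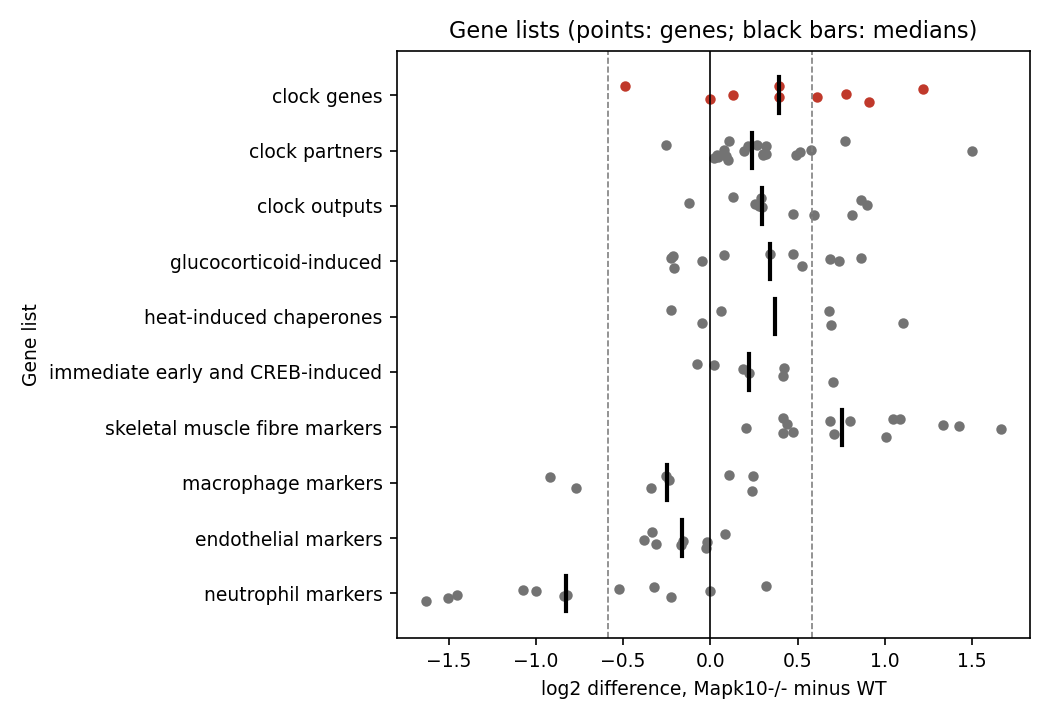
Log2 difference (*Mapk10*-/- minus WT) of each gene (points) in 10 gene lists, with the list median (black bar) and 1.5-fold lines (dashed). The clock genes have a median of 0.40, between that of the muscle fibre markers (0.75) and that of the endothelial markers (-0.16), and their range of -0.49 to 1.22 crosses 0.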

How the data were processed

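RNA of 3 mice per genotype was hybridised to 1 Affymetrix MoGene 2.0 ST array each. The deposited values are the authors' processed intensity of each probe on a linear scale (median 41.2 for *Mapk10*-/- and 43.2 for WT). How the authors corrected the background, summarised and normalized is not given in any source used here, so the effect of these steps on the differences is unknown. The number of arrays limits the precision.

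Of 41345 probes, 23521 had 1 gene symbol, 1820 several and 16004 none in GEO's platform annotation, and 23328 symbols were matched to RefSeq (GRCm38.p6) through their gene ID. The brightest probe (highest mean of both arrays) stood for a gene, and 1082 of 22180 genes had several. No pseudocount or filter was used. The technical SD is the SD of the difference between the 2 probes of 968 genes, divided by the square root of 2. The size rule was 1.5-fold.

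Genes named are the 10 clock genes, genes past 1.5-fold or with the largest differences in each list, *Mapk10* and sex-linked genes. The rule also asked for the 3 genes nearest in signal, which are left out because levels of different probes cannot be compared. *Thra*, *Sphk2*, *Uts2* and further list genes within 1.5-fold were added after values were seen. The members and lists were chosen with earlier results of these data known. Alternatives were median centring, loess (span 0.3), quantile normalization, the mean of probes, a floor at the 25th percentile, a pseudocount of 16, probes with several symbols, brighter genes only, and a 2-fold rule. Code was tested on simulated data. Python 3.11.15, numpy 2.4.6, pandas 2.3.3, statsmodels 0.14.6 and matplotlib 3.10.9 were used.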

Additional observations from a re-analysis of the deposited data

How the results depend on the processing

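No paired analysis was possible because there is 1 array of pooled RNA per genotype. The alternatives show the effect of processing, not of sampling, and signal over background could not be read from the values used. Of the 9 clock genes, 8 stayed on their side of the 1.5-fold line under 8 alternatives. The exception was *Cry2*, at 0.584 after loess and 0.51 with a pseudocount of 16, which left 3 clock genes higher. The mean of probes, a floor, probes with several symbols and brighter genes only left all 9 values unchanged. Stability of these genes was thus tried only by median centring, loess, quantile normalization and the pseudocount. *Cry1* lay on both sides of 0 (-0.03 to 0.07), no other clock gene changed sign, and the clock gene median ran from 0.36 to 0.47. With probes of several symbols, the shared probe gave *Per2* a value of 0.54. *Tef* was at 0.23 as the mean of its probes. By construction fewer genes passed at 2-fold, with 1 clock gene (*Nr1d1*), 1 other component (*Bhlhe41*) and 183 of all genes higher and 135 lower. The 910 genes higher and 819 lower became 572 and 263 with a pseudocount of 16, 781 and 491 with a floor, and 682 and 268 among brighter genes. Fewer or compressed values reduce such counts by construction. Lower calls fell more than higher calls under each of these settings, and the reason was not tested. With probes of several symbols counted, 966 of all genes were higher and 1061 lower. Median centring moved the split to 1217 higher and 579 lower (67.8% of calls higher, against 52.6%), shifted the median of all genes by 0.07 and brought *Rora* past 1.5-fold (0.65).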
